A study of Mus musculus with 8 samples.

Results

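Growth hormone and related cytokines act on the kidney through receptors that carry the kinase JAK2, and 10 genes of that route were followed here in kidneys of mice that model MUC1 kidney disease. They are 4 feedback inhibitors (Cish, Socs1, Socs2 and Socs3), 3 transcription factors (Stat5a, Stat5b and Stat3), the kinase gene Jak2, and 2 receptor genes (Ghr and Prlr). All 10 symbols were found among the 21759 genes of the table. The genes were chosen by symbol with earlier results of the same libraries in view: Cish had the most negative fold change of the 84 genes called lower with treatment, and the others are its partners in the pathway. The treatment contrast of these 10 genes is therefore given as a description, with estimates and standard errors and with no p-value.

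Polyadenylated RNA from a kidney section of each of 8 male mice was sequenced in bulk, 1 library per mouse. All were knock-in animals, 8 months of age, of a model of an inherited tubulointerstitial disease in which mutant MUC1 protein builds up in the secretory pathway. The vehicle group of 4 mice received saline and the treated group of 4 received BRD4780, a small molecule known as a ligand of the cargo receptor TMED9, at 50 mg/kg, both daily over 7 days. Sample titles write AGN50 where the treatment label has BRD4780. Every animal carries the disease model, so the comparison is between diseased kidneys with and without the compound. The sources used here do not give the allele, the strain background or the hour of kidney removal. Replicate numbers below follow deposition order. In the sample titles, vehicle replicate 2 and BRD4780 replicate 1 share the first part of their animal number, as do vehicle replicate 4 and BRD4780 replicate 2. The labels do not say what that part stands for, and it was not used to pair mice.

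In the growth hormone pathway, the hormone joins 2 receptor molecules, the attached JAK2 phosphorylates STAT5A and STAT5B, and these enter the nucleus and switch on target genes. CISH and SOCS2 are made in response to STAT5 and block the same receptors, while SOCS1 and SOCS3 are the corresponding inhibitors better known from interferon and interleukin-6 signalling, the latter working through STAT3. RNA of Cish and Socs2 is commonly read as a sign of recent STAT5 activity. The pituitary releases growth hormone in pulses in male rodents, and the kidney is one of the organs with abundant receptor.

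Library totals ran from 16.6 to 28.5 M expected counts with vehicle and from 5.74 to 28.2 M with BRD4780, the shallowest being BRD4780 replicate 4. Values are CPM (counts per M counts of a library) with totals scaled by TMM, a method that allows for differences in composition between libraries. Proximal tubule markers summed to at least 14300 CPM in every library and thick ascending limb markers to at least 2380 CPM, so the defining RNAs of kidney were present throughout. Of 13474 genes tested with edgeR, 2.30% were called higher and 0.623% lower with BRD4780 (adjusted p under 0.05), together 2.92%. In 12.6% the 2 groups did not overlap.

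STAT proteins bind the palindrome TTCNNNGAA, in which N is any base, and the promoters of the 10 genes were searched for it because the feedback inhibitors are textbook STAT targets. RefSeq windows (GRCm38.p6) from 250 bases before to 50 after each annotated start held it in 8.30% of 32851 windows and held 2 or more copies in 0.457%. The motif reads the same on both strands, so 1 search covers both. Of the 10 genes 9 matched, with 14 windows, and Socs2 is named only. The motif was in 3 of these windows, and the Cish window held 2 copies. The sites are shown 5′ to 3′ on the strand of the gene with the fixed letters of the motif in capitals.
Cish (chr9:107296655-107296682, plus strand): agttTTCctgGAAagTTCttgGAAatct
Socs3 (chr11:117969508-117969524, minus strand): agccTTCttaGAAggga
Prlr (chr15:10223792-10223808, plus strand): tgagTTCtagGAAtaag
The Cish copies begin at bases 1 and 12 of the RefSeq transcript and do not overlap each other. They lie inside the span that GENCODE gives the gene, which begins further upstream, at base 107296026. The Socs3 copy begins 154 bases before the start, and the Prlr copy 110 bases before 1 of its 3 annotated starts. These are matches of letters and say nothing of which factor was bound in these kidneys.

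Cish (chromosome 9, 107296026 to 107302784, plus strand, mm10) encodes the inhibitor that binds phosphorylated receptors and competes with STAT5 for them. Its level with vehicle was 88.4, 57.3, 91.7 and 49.5 CPM in replicates 1 to 4, and with BRD4780 it was 20.0, 22.9, 14.8 and 7.70 CPM. Every treated kidney was below every vehicle kidney, and the lowest vehicle value was 2.16 times the highest treated value. The means were 71.7 ± 21.4 and 16.3 ± 6.7 CPM (SD, n = 4 per group), a log2 fold change of -2.07 ± 0.29 (SE), or 4.21-fold lower with BRD4780. The lowest value, in BRD4780 replicate 4, rests on 46 counts in the shallowest library. Without that library the log2 fold change was -1.90, and leaving out each of the 8 libraries in turn gave -2.26 to -1.90. Of the exon bases of Cish, 4.07% and 7.46% are shared with the opposite-strand transcripts Gm17040 and Gm17041. The library kit keeps strand, but the sources used here do not say whether counting used it. In bulk kidney RNA, fewer cells that express a gene and less RNA per cell cannot be told apart.

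**Figure D1:**
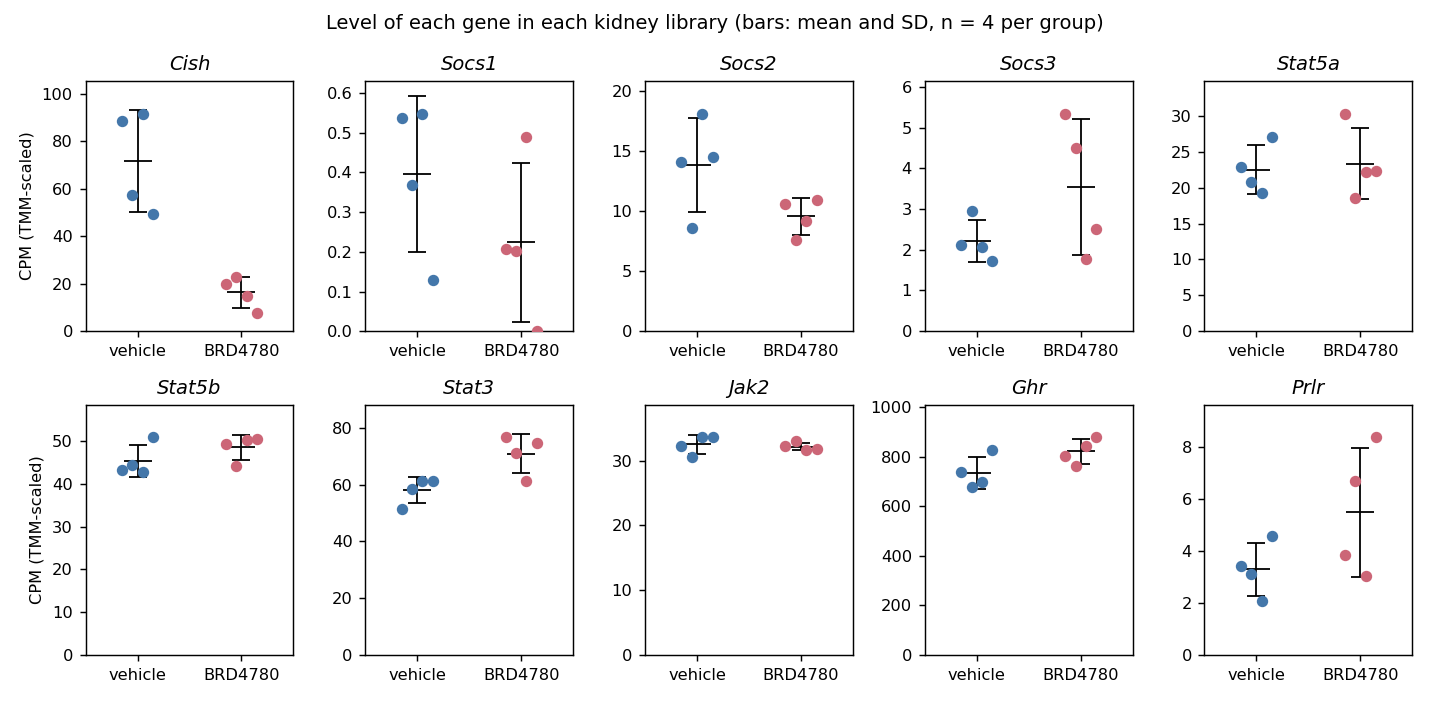
CPM of each of the 10 genes in every library, vehicle on the left and BRD4780 on the right of each panel, with axes from 0. Bars give the mean and SD of 4 libraries. The 4 treated Cish values lie between 7.70 and 22.9 CPM, below all vehicle values, while the groups overlap in the other panels.

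Socs2 (chromosome 10, 95385362 to 95417180, minus strand), whose product restrains growth hormone signalling and whose loss in mice gives overgrowth, stood at 14.1, 8.62, 18.1 and 14.5 CPM with vehicle. With BRD4780 it stood at 10.6, 7.55, 9.13 and 10.9 CPM. The treated values sat in the lower part of the vehicle range, with 1 of 4 below it, and vehicle replicate 2 was among the treated values. The log2 fold change was -0.55 ± 0.21 (SE), which was not past the threshold over all genes, and its range without each library in turn was -0.72 to -0.40.

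Socs3 (chromosome 11, 117966079 to 117970047, minus strand), the inhibitor of the interleukin-6 receptor family, was at 2.12, 2.95, 2.07 and 1.72 CPM with vehicle and at 5.34, 4.50, 1.77 and 2.51 CPM with BRD4780. BRD4780 replicates 1 and 2 were above the vehicle range and the other two were inside it. Its log2 fold change was 0.70 ± 0.34 (SE), not past the threshold, on 213 counts in the vehicle group and 325 in the treated group.

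Socs1 (chromosome 16, 10782240 to 10785536, minus strand), which blocks JAK kinases directly and is induced by interferons, was close to the limit of detection. It had 15, 10, 9 and 3 counts with vehicle and 5, 6, 13 and 0 with BRD4780. The 0 belongs to BRD4780 replicate 4, whose depth allows up to 0.502 CPM (3 counts), a limit above the value of 5 of the other 7 libraries. The gene did not pass the filter on low counts, and a difference was not detectable at this depth.

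The 4 inhibitors differed in how much of their summed RNA each made up. Cish was 84.1%, 82.8%, 81.5% and 75.2% of the summed CPM of the 4 genes in vehicle replicates 1 to 4, and 55.3%, 65.1%, 56.5% and 36.5% in BRD4780 replicates 1 to 4. The ratio of Cish to Socs2 CPM was between 3.41 and 6.65 with vehicle and between 0.708 and 3.03 with BRD4780. These shares and ratios are not corrected for gene length and serve to compare libraries. They are computed from the Cish values, so their lack of overlap between the groups is no separate result.

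**Figure D2:**
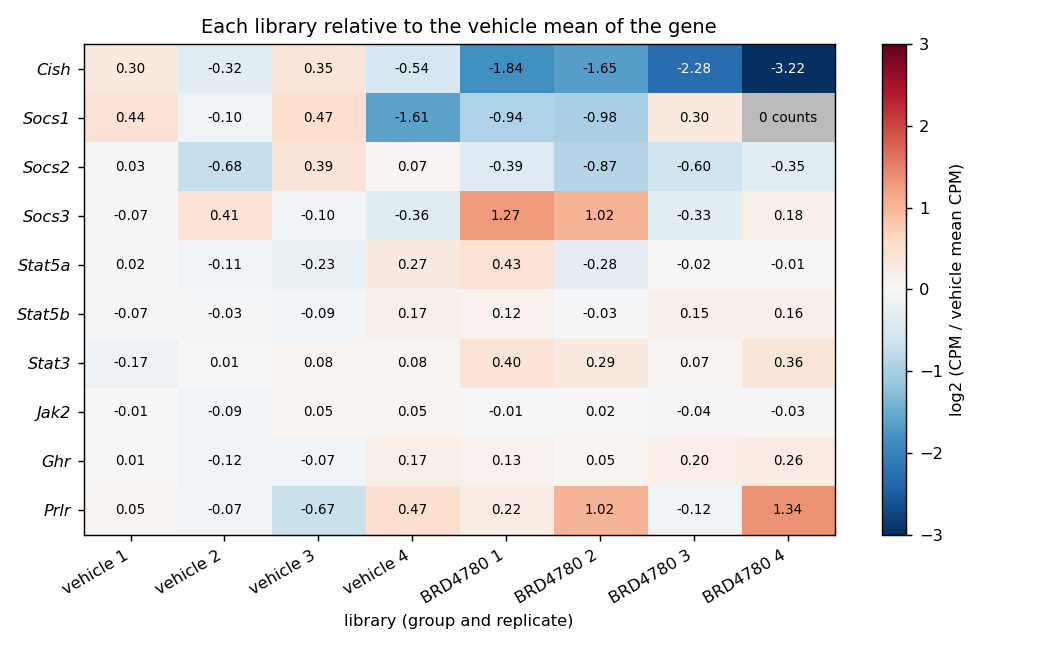
Log2 of each library's CPM over the vehicle mean of the same gene, with genes in rows and libraries in columns. Cish is between -3.22 and -1.65 in the treated libraries, and Jak2 stays between -0.09 and 0.05 in all 8. Grey marks the library with 0 Socs1 counts.

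Both Stat5 genes had overlapping groups and small estimates. Stat5a (chromosome 11, 100859351 to 100885169, plus strand), best known from prolactin signalling in the mammary gland, was at 22.9, 20.8, 19.2 and 27.1 CPM with vehicle and at 30.3, 18.6, 22.2 and 22.3 CPM with BRD4780. Treated libraries lay above, below and within the vehicle range, and the log2 fold change was 0.05 ± 0.16 (SE), negative when vehicle replicate 3 (-0.02) or BRD4780 replicate 1 (-0.11) was left out. Stat5b (chromosome 11, 100780731 to 100850724, minus strand), the main mediator of growth hormone effects on body growth, was at 43.3, 44.4, 42.8 and 50.9 CPM with vehicle and at 49.3, 44.3, 50.3 and 50.5 CPM with BRD4780. All 4 treated values were inside the vehicle range, with a log2 fold change of 0.10 ± 0.08 (SE). The Stat5a share of the summed Stat5a and Stat5b CPM was 31.0% to 34.7% with vehicle and 29.5% to 38.1% with BRD4780. The genes are close paralogs that lie next to each other, and reads that fit both are divided by the counting program, so this split is less certain than their sum.

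Stat3 (chromosome 11, 100885098 to 100939540, minus strand), the factor that carries interleukin-6 family signals, was at 51.5, 58.4, 61.3 and 61.3 CPM with vehicle. With BRD4780 it was at 76.7, 71.3, 61.2 and 74.6 CPM. BRD4780 replicate 3 was inside the vehicle range and the other 3 treated libraries were above it. The log2 fold change of 0.29 ± 0.09 (SE) was not past the threshold. Without BRD4780 replicate 3, the values were 0.35 for Stat3 and 0.95 for Socs3, and both passed. In that fit 1647 genes of the whole table were called higher and 1537 lower, against 310 and 84 with all 8 libraries. The 2 passes are therefore not particular to these genes. Without BRD4780 replicate 1 the value of Socs3 was 0.42, not past the threshold. The 3′ ends of Stat3 and Stat5a face each other and share 72 bases on opposite strands.

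Jak2 (chromosome 19, 29251828 to 29313080, plus strand), the kinase that both receptors use, was the steadiest of the genes. It was at 32.2, 30.6, 33.6 and 33.6 CPM with vehicle and at 32.2, 33.0, 31.7 and 31.8 CPM with BRD4780. The group means were 32.5 ± 1.4 and 32.2 ± 0.6 CPM (SD, n = 4 per group), with a log2 fold change of -0.01 ± 0.07 (SE) that was 0.06 with plain library totals and 0.07 after thinning to equal depth.

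Ghr (chromosome 15, 3317760 to 3583492, minus strand), the growth hormone receptor, was by far the highest of the 10. It was at 739, 678, 698 and 825 CPM with vehicle and at 803, 762, 844 and 878 CPM with BRD4780. Treated libraries were in the upper part of the vehicle range or above it, 2 of 4 exceeding it, and the log2 fold change was 0.16 ± 0.09 (SE), not past the threshold. The count covers all transcripts of the gene, so the membrane receptor and the secreted binding protein made from it were not told apart.

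Prlr (chromosome 15, 10177238 to 10349180, plus strand), the prolactin receptor, was low and variable. It was at 3.41, 3.13, 2.07 and 4.57 CPM with vehicle and at 3.85, 6.68, 3.04 and 8.37 CPM with BRD4780. BRD4780 replicates 2 and 4 were above the vehicle range and the other two within it. The log2 fold change was 0.67 ± 0.34 (SE), not past the threshold. Another gene on its own strand, Gm21973, shares 203 exon bases with it, and reads there cannot be told apart by strand.

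Of the 9 genes tested, 0 were called higher, against 2.30% of all genes, and 1 was called lower, Cish, against 0.623%. Since Cish prompted the choice of the list, nothing is read from that count. The estimates were positive in 6 and negative in 3. Groups did not overlap in 1 of the 9, against 12.6% of all genes tested.

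Levels of different genes were compared per kb of annotated exon. With vehicle, Ghr came first at 81.2 ± 7.2 CPM per kb (SD, n = 4), followed by Cish at 11.2 ± 3.3, Stat5b at 8.19 ± 0.68, Jak2 at 6.47 ± 0.28 and Stat3 at 6.10 ± 0.48. Stat5a followed at 3.15 ± 0.48, Socs2 at 1.45 ± 0.41, Socs3 at 0.766 ± 0.179, Prlr at 0.215 ± 0.067 and Socs1 at 0.136 ± 0.067 (CPM per kb, SD, n = 4). The libraries of 4 neighbouring pairs in that order overlapped, namely Cish with Stat5b, Jak2 with Stat3, Socs2 with Socs3, and Prlr with Socs1. With BRD4780 Cish stood at 2.54 ± 1.04 CPM per kb (SD, n = 4) and ranked 6 of 10 where it had ranked 2 with vehicle, below the means of both Stat5 genes, Stat3 and Jak2. Its treated libraries, at 1.20 to 3.56 CPM per kb, overlapped those of its neighbours in that order, Stat5a (2.61 to 4.25) and Socs3 (0.611 to 1.85). The same pair of ranks was found with the longest coding transcript as the length, a scale on which Stat3 came before Stat5b and Socs2 before Stat5a with vehicle. The overlaps given above depend on the length used and hold for annotated exons only. For Cish that length is 6419 bases, against 2850 for its longest coding transcript.

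**Figure D3:**
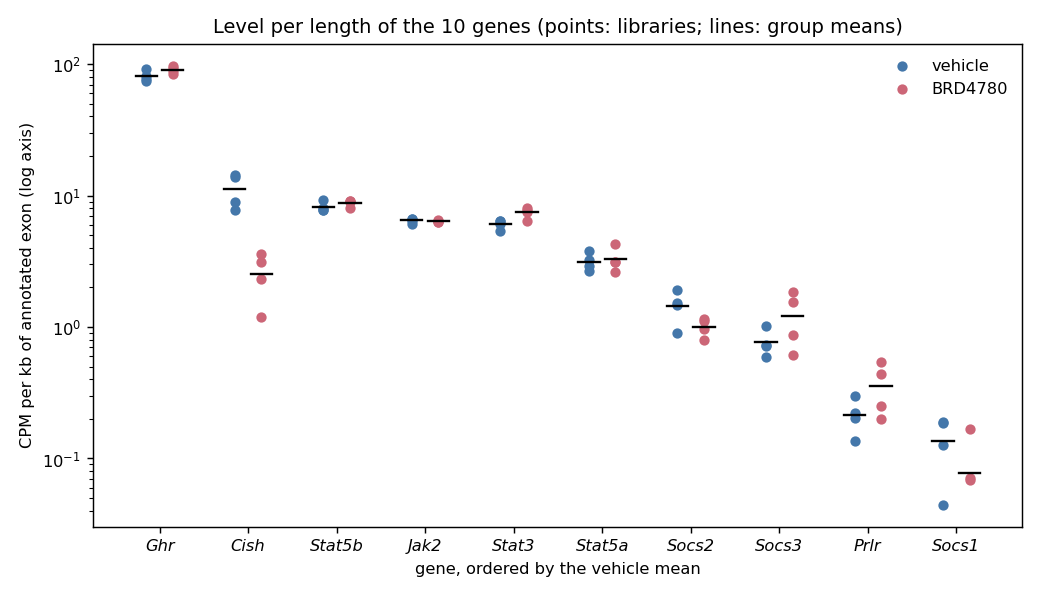
CPM per kb of annotated exon on a log axis for the 10 genes in order of their vehicle mean, with a point per library and a line at each group mean. Cish is at 11.2 CPM per kb with vehicle and 2.54 with BRD4780, while Stat5b is at 8.19 and 8.78 and Jak2 at 6.47 and 6.40. The library with 0 Socs1 counts has no point.

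The genes also differed in how much they varied among libraries of 1 group. That spread includes counting error, which is largest at low counts, and the percentiles below are over genes of all levels. In BRD4780 replicate 4, Cish had 46 counts, Socs3 15 and Prlr 50. The SD of log2 CPM over the vehicle libraries was 0.45 for Cish and for Socs2 and 0.46 for Prlr, each at about percentile 90 of all genes tested, whose median was 0.14. For Jak2 it was 0.06, at percentile 13.3. With BRD4780 the SD of log2 CPM was 0.69 for Cish, 0.72 for Socs3 and 0.67 for Prlr, above percentile 93 of all genes, whose median was 0.21, and it was 0.03 for Jak2 (percentile 0.4).

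Correlation of log2 CPM with Cish over the 8 libraries was used to name the genes most like it, among 11195 genes averaging 1 or more on that scale. They were Lmo2 (Pearson r = 0.97), Cand2 (0.97), Xrcc2 (0.96), Zfp503 (0.96) and Gmcl1 (0.95). All 8 points share the difference between the groups, and the values are a description of these libraries. The log2 fold changes of these genes were much smaller than that of Cish, from -0.71 ± 0.18 (SE) in Cand2 to -0.34 ± 0.08 in Gmcl1. After the group means were subtracted, a separate set led, Mrvi1 (r = 0.98), Ska2, Tsen15, Prkd2 and Zfp78 (r = 0.94). These are the extremes of 11195 genes over 8 points, where high r is easily reached. All of them, like Cish, had their lowest CPM in BRD4780 replicate 4, the shallowest library. Among the other members, r with Cish after that subtraction ranged from -0.71 for Stat5b to 0.48 for Socs3, and it was 0.00 for Socs2.

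A wider list of 96 genes of cytokine and JAK-STAT signalling, grouped by role, was set beside the 10. It was also written with earlier results of these data known, so nothing is read from the counts and shares called in it or in its lists below. Of its 82 tested genes 4 rose (4.88%, against 2.30% of all genes) and 2 fell (2.44%, against 0.623%), and the median log2 fold change was 0.04, against 0.01 for all genes tested. Groups did not overlap in 13 of the 82, against 12.6% of all genes.

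None of the other inhibitors, kinases or factors passed the test. The 4 SOCS genes outside the 10 all had negative estimates, from -0.25 ± 0.08 (SE) in Socs6 (adjusted p = 0.108) to -0.03 in Socs5. Socs6 averaged 29.5 ± 0.7 CPM with vehicle and 24.8 ± 2.1 CPM in treated kidneys (± SD of 4 libraries each) and its groups did not overlap. Socs7 averaged 36.6 ± 0.7 and 30.5 ± 6.4 CPM (± SD of 4 libraries each), with an adjusted p of 0.248. Of the other JAK kinases, 0 of 3 passed: Jak1, shared by many cytokine receptors, had a log2 fold change of -0.17 ± 0.08 (SE, adjusted p = 0.24) and Jak3 of -0.25 ± 0.11 (SE, adjusted p = 0.179). Of the other STAT genes 0 of 3 tested passed, with Stat2, which relays interferon signals, at a log2 fold change of 0.20 ± 0.14 (SE, adjusted p = 0.386). Among 13 phosphatases, PIAS proteins and adaptors, 0 passed, with Ptpn1 at 0.31 ± 0.10 (SE, adjusted p = 0.109) and Cblb at 0.32 ± 0.12 (SE, adjusted p = 0.145).

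Of 22 tested cytokine receptor genes 1 rose (4.55%, against 2.30% of all genes) and 0 fell. Ifngr1, a chain of the interferon gamma receptor, was at 23.4, 22.5, 19.7 and 23.5 CPM with vehicle and at 29.5, 32.5, 28.4 and 37.8 CPM with BRD4780. Every treated kidney was above every vehicle kidney, and the rise was 1.43-fold (log2 fold change 0.51 ± 0.11 SE, adjusted p = 0.037). Lifr, the receptor of leukemia inhibitory factor, had a log2 fold change of 0.37 ± 0.11 (SE, adjusted p = 0.0891).

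Ligand levels ranged widely, and RNA of the hormones themselves was close to absent. The hormone genes Gh and Prl had 1 and 0 counts in all with vehicle and 0 and 0 with BRD4780. Interleukin-6 (Il6) had 1 count in each group. Of the 8 ligands tested 1 fell (12.5%, against 0.623% of all genes), Lif, an interleukin-6 family cytokine that signals through Stat3. It was at 0.897, 1.22, 1.04 and 1.08 CPM with vehicle and at 0.248, 0.470, 0.413 and 0.502 CPM with BRD4780, 2.66-fold lower without overlap (log2 fold change -1.41 ± 0.30 SE, adjusted p = 0.0428). These Lif values rest on few counts, 25, 33, 17 and 25 with vehicle and 6, 14, 11 and 3 with BRD4780. The 3 counts of BRD4780 replicate 4 are at the floor used here. Clcf1, of the same family, had a log2 fold change of 0.67 ± 0.25 (SE, adjusted p = 0.15).

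Of 15 tested target genes of growth hormone and STAT5, 1 rose (6.67%, against 2.30% of all genes) and 1 fell (6.67%, against 0.623%), with 12 positive and 3 negative estimates. Igfbp3, which carries IGF1 in plasma, was at 83.4, 63.0, 80.8 and 56.0 CPM with vehicle and at 99.2, 122, 122 and 115 CPM with BRD4780, a 1.62-fold rise without overlap (log2 fold change 0.69 ± 0.13 SE, adjusted p = 0.0293). Rgs3, a regulator of G protein signalling placed in this list as a candidate target, fell, averaging 20.5 ± 3.3 CPM with vehicle and 13.0 ± 2.2 CPM in treated kidneys (± SD of 4 libraries each). Its log2 fold change was -0.64 ± 0.15 (SE), with an adjusted p of 0.046. Igf1, the classic growth hormone target, was named after its values were seen. It was at 10.4, 9.21, 10.4 and 6.90 CPM with vehicle and at 4.26, 4.66, 4.02 and 8.37 CPM with BRD4780. Of the treated kidneys 3 lay below the vehicle range and replicate 4 inside it, and the gene did not pass (log2 fold change -0.87 ± 0.24 SE, adjusted p = 0.0736). Pim3 of the same list, also named after its values were seen, went the other way. Every treated kidney had more Pim3 than every vehicle kidney, and it did not pass either (log2 fold change 0.555 ± 0.143 SE, adjusted p = 0.0647).

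Among STAT3 target genes 2 of 15 rose (13.3%, against 2.30% of all genes) and 0 fell, with 9 positive and 6 negative estimates. Cebpb, a transcription factor gene of the acute phase response, was at 5.20, 6.26, 5.48 and 5.22 CPM with vehicle and at 15.1, 13.0, 7.02 and 15.4 CPM with BRD4780 (2.25-fold, adjusted p = 0.0315). Among treated kidneys replicate 3 had the least Cebpb, as it had the least Stat3 and Socs3. Fga, a fibrinogen chain gene, averaged 23.4 ± 6.5 CPM with vehicle and 44.0 ± 7.9 CPM in treated kidneys (± SD of 4 libraries each), a 1.86-fold rise with an adjusted p of 0.0421. Not every gene of the list was least in replicate 3: Fga was at 39.7 CPM there and at 35.6 CPM in BRD4780 replicate 1. Leaving out replicate 3 also raised the calls over the whole table, to 1647 higher and 1537 lower. A link among these genes was not tested. Exons of Cebpb overlap Tmem189 on the opposite strand over 20.7% of their length.

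All 6 calls were lost in most fits on fewer libraries. Leaving out 1 library at a time, with fewer samples in each fit, Cebpb, Ifngr1, Lif and Rgs3 passed in 1 of 8 fits, the one without BRD4780 replicate 3. Fga passed in 2 and Igfbp3 in 3 of 8. Where they were lost the adjusted p was 0.0572 to 0.103 for Cebpb, 0.0544 to 0.11 for Ifngr1, 0.0647 to 0.131 for Lif, 0.0544 to 0.131 for Rgs3, 0.0553 to 0.128 for Fga and 0.0528 to 0.108 for Igfbp3. No estimate changed sign. Under other settings, Cebpb was lost with limma-voom (adjusted p = 0.0647), Rgs3 with plain totals (0.0515) and with limma-voom (0.0569), and Lif with no filter on low counts (0.0515).

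**Figure D4:**
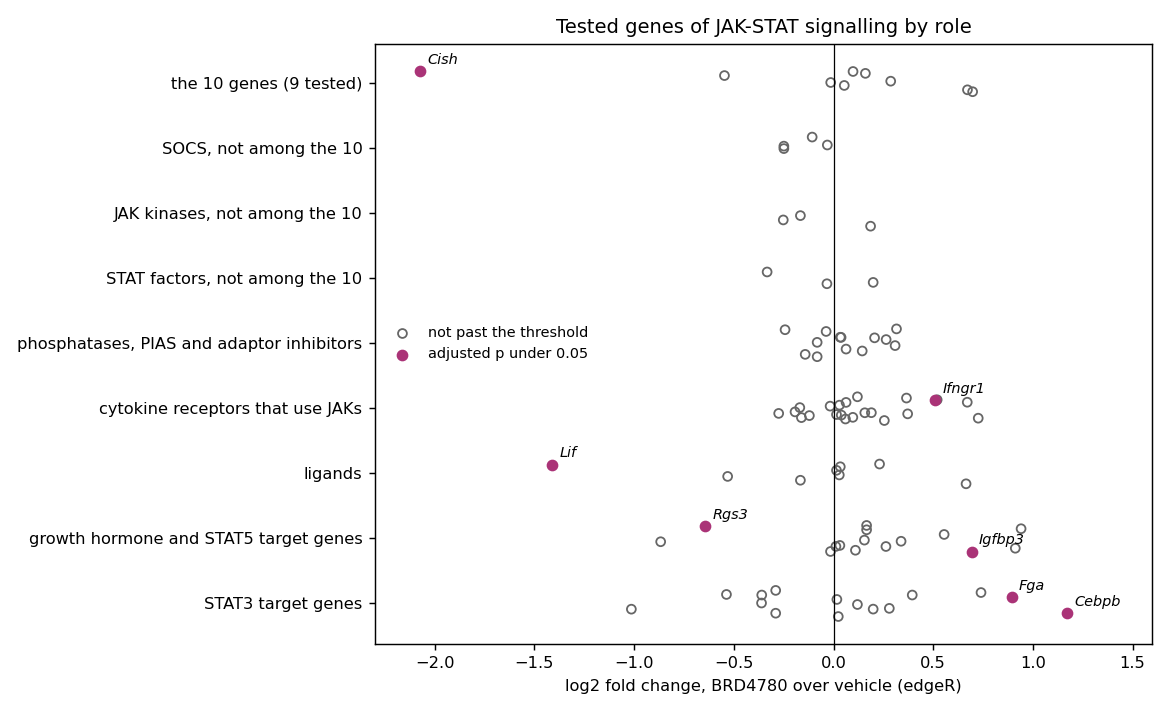
Log2 fold change of BRD4780 over vehicle for each tested gene, 1 row per role, with filled points for genes at an adjusted p under 0.05 and open points for the others. Cish at -2.07 lies far from the other tested members, which are between -0.55 and 0.70, and Lif at -1.41 is the lowest of the wider list. Vertical scatter within a row has no meaning.

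Markers of cell types that could contribute these RNAs were summed in each library. Lymphocytes, in which cytokines induce Cish, were represented by 8 T cell and B cell markers, all in the table and none at 0 in every library. They summed to 2.56 to 4.52 CPM with vehicle and 1.90 to 4.58 CPM with BRD4780. Macrophage markers (7 of 8 in the table) summed to 133 to 254 and 105 to 161 CPM. Csf1r was the largest part of that sum, averaging 105.3 CPM with vehicle and 77.5 CPM with BRD4780. The 8 adipocyte markers summed to 85.6 to 253 CPM with vehicle and 56.7 to 179 CPM with BRD4780, with 0 of 6 tested markers called and a median log2 fold change of -1.77. Most of the adipocyte sum was Fabp4, averaging 103.7 and 78.5 CPM, so it mainly follows that gene. In each of these 3 lists the groups overlapped.

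Lists that stood apart between the groups were those of podocytes and endothelium, and both were higher with BRD4780. The 6 podocyte markers summed to 54.4 to 134 CPM and 193 to 294 CPM, with 3 of 6 called higher, against 2.30% of all genes. The 8 endothelial markers summed to 121 to 223 CPM and 249 to 311 CPM, with 2 of 8 called higher, against the same 2.30%. Erythrocyte markers (3 of 5 in the table) summed to 495 to 1530 CPM with vehicle and 171 to 776 CPM with BRD4780. Thick ascending limb markers summed to 3490 to 4650 CPM and 2380 to 3830 CPM, and proximal tubule markers to 16900 to 18400 CPM and 14300 to 20000 CPM. Of the thick ascending limb markers 1 of 6 was called lower (Kcnj1), against 0.623% of all genes, and their median log2 fold change was -0.45. Groups overlapped for all lists but those of podocytes and endothelium, with distal convoluted tubule markers at 807 to 1140 and 1020 to 1480 CPM, collecting duct markers at 672 to 1000 and 465 to 977 CPM, and fibroblast and pericyte markers at 80.5 to 105 and 84.1 to 111 CPM. Of the distal convoluted tubule markers 1 of 5 was called higher (Trpm6), against 2.30% of all genes. Liver markers summed to 2540 to 2640 and 2410 to 3100 CPM. Most of that sum was Cyp2e1, averaging 2269 and 2468 CPM, while Alb averaged 8.00 and 6.97 CPM, so it is no measure of liver RNA. Of all these markers, Mup3 of the liver list was the 1 at 0 in every library. Their part in the difference of Cish, and in those of the other genes named here, was not tested.

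**Figure D5:**
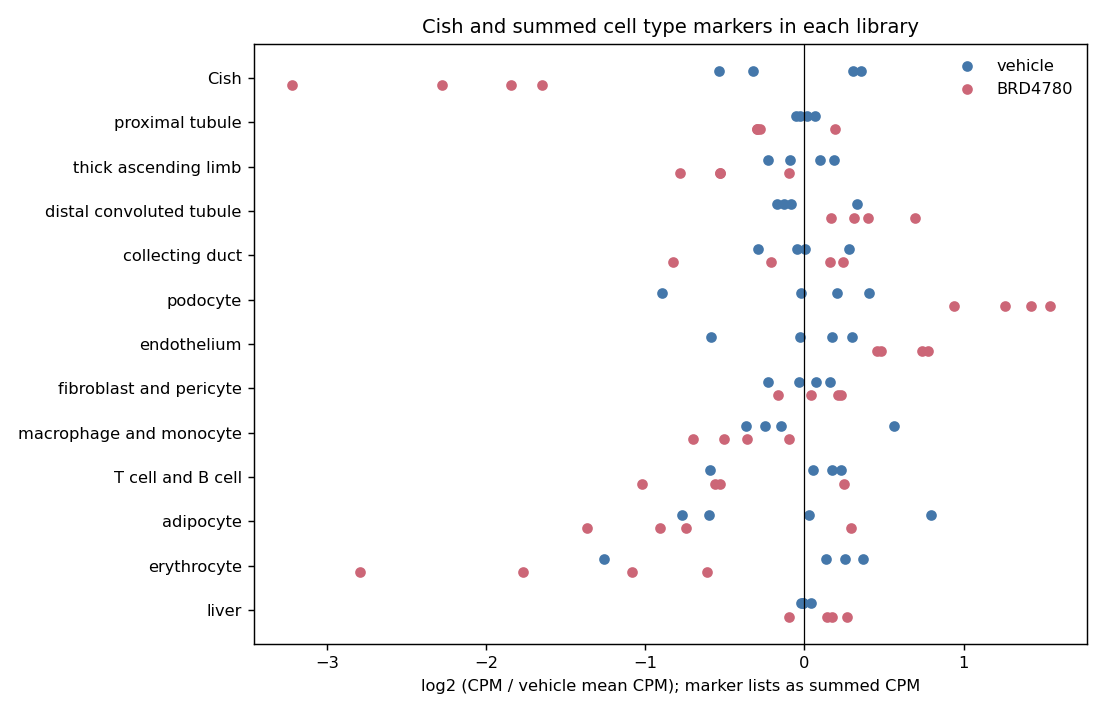
Log2 of CPM over the vehicle mean in each library, for Cish in the top row and for the summed markers of 12 cell types below it, with vehicle in blue and BRD4780 in red. Cish, podocyte markers and endothelial markers show groups that do not overlap, Cish towards lower and the 2 marker lists towards higher values with BRD4780.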

How the data were processed

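The values the authors deposited are RSEM expected counts per gene, raw and not normalized, with 1 column per library. STAR 2.5.2b, RSEM 1.3.0, Picard and the builds mm10 and hg19 are listed per the submitters' processing notes, with no role stated. The sources used here do not give the annotation, filters or strand setting. The table had 1 further column of per-sample values, which was not used. Repeated symbols (343, with identical values) were collapsed. Counts were rounded, filtered with filterByExpr (minimum count 10) and scaled by TMM, and BRD4780 was compared with vehicle over all 8 libraries by the quasi-likelihood test of edgeR 4.0.16 (R 4.3.3), with Benjamini-Hochberg adjustment over 13474 genes and a threshold of 0.05. The SE is the absolute log2 fold change over the square root of F. The code was checked on simulated counts. Coordinates and exon lengths are from GENCODE M21 (GRCm38). The 10 genes, the 8 pathway lists and the 12 marker lists were chosen with earlier results of these data known, so the shares called in them are a description. Named genes are the 10, the pathway genes past the threshold, the 2 of smallest p in each pathway list, and the 5 most like Cish by each measure (no Gm or Rik names), and 1 gene that the rule names is not reported here. Igf1 and Pim3 were named outside that rule, after their values were seen. Floors (3 counts) cover counting error only. Alternatives were RLE factors, plain totals, no filter, DESeq2 1.42.0, limma-voom 3.58.1, thinning to the shallowest total and leaving out each library.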

Additional observations from a re-analysis of the deposited data

How the results depend on the processing

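The log2 fold change of Cish was -2.26 to -1.90 over the 14 alternatives, and 1 member was called lower in each. Cish was chosen on its value in these libraries, so this is no independent support. No member was called higher except without BRD4780 replicate 3, where Socs3 and Stat3 were (range without 1 library 0 to 2). Pathway genes called higher were 4 over all libraries, 10 with DESeq2, and 0 to 13 without 1 library. Those called lower were 2, against 1 with no filter, with plain totals or with thinning, and 0 to 10 without 1 library. Over all genes, 310 were higher and 84 lower, against 864 and 497 with DESeq2, 204 higher with limma-voom, and 26 to 1647 higher and 5 to 1537 lower without 1 library. The lowest counts came without vehicle replicate 2 and the highest without BRD4780 replicate 3. The cause was not tested. Of the fold changes named, those of Jak2 and Stat5a changed sign in some alternatives. Depth limits Socs1, which was not tested after the filter, and Lif and Clcf1 have no value after thinning. No fit with pairs was run: the first part of the animal number in the titles is shared by 2 mice of each group, but the labels do not say what it stands for.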
